A study of Mus musculus with 6 samples.

Results

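The transcripts of the machinery that makes, breaks down and reads out cAMP were followed in differentiated primary brown adipocytes: the adenylyl cyclases, the cyclic nucleotide phosphodiesterases, the subunits of protein kinase A (PKA) and the A-kinase anchoring proteins. Members were all genes of the deposited transcript table with a RefSeq transcript and a symbol of the Adcy, Pde, Akap or PKA subunit families. These were 56 of the 22466 genes with a RefSeq transcript, and they had 92 of its 28890 RefSeq rows. Each gene was represented by the row with the highest mean over all cultures. There were 10 cyclases, 21 catalytic phosphodiesterases, 3 genes with a Pde6 symbol that code for non-catalytic proteins, 2 catalytic and 4 regulatory PKA subunits and 16 anchors.

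The study compared 3 cultures of wildtype mice (WT 10, WT 11 and WT 12) with 3 cultures of UCP1(-/-) mice (Ucp1-KO 13, Ucp1-KO 14 and Ucp1-KO 15). All mice were male, of the 129SvEvS1 strain and aged 5 to 6 weeks. Precursor cells of interscapular brown fat were grown to confluency, induced for 2 days with a cocktail that held the phosphodiesterase inhibitor isobutylmethylxanthine, dexamethasone, indomethacin, insulin, T3 and rosiglitazone, and then kept for 7 days with insulin, T3 and rosiglitazone. RNA came from these cultures as a whole, and the RNA preparation names no adrenergic agonist. The cultures were prepared independently of each other, but it is not stated how many mice went into each.

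Noradrenaline acts on brown adipocytes through β-adrenergic receptors and a stimulatory G protein, which activates adenylyl cyclases to produce cAMP. cAMP releases the catalytic subunits of PKA from its regulatory subunits, and PKA then triggers lipolysis and thermogenic gene transcription. Phosphodiesterases hydrolyse cAMP, cGMP or both, and anchoring proteins place PKA at particular sites of the cell.

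Abundance was given as RPKM, reads scaled by the length of the transcript and by the mapped total of the culture, a measure per length that allows levels of different genes to be set side by side. The values correspond to library totals of 14989604 to 17727653 reads. For a length of 2000 bases, 3 reads then correspond to 0.0846 to 0.1 RPKM. The targeted gene Ucp1 measured 1775, 981 and 1157 RPKM in the WT cultures and 307, 409 and 398 RPKM in the Ucp1-KO cultures, so that every culture stood on the side its label gives. Its log2 fold change was -1.78 (unadjusted p = 0.000157, adjusted p = 0.868, limma), so that this change of the deleted gene did not pass the adjusted threshold either. The values cover the whole transcript, and the study describes a remnant transcript that the knockout allele still makes, so the check does not rest on the deleted part. Of the 13 brown adipocyte markers, 13 passed the minimum of 0.5 RPKM and 0 were at 0. Summed markers of other cells differed between single cultures: preadipocyte and fibroblast markers were highest in WT 11 (1680.5 RPKM against 618 to 1012 in the others), endothelial markers likewise (29.6 against 2.45 to 13.9), and macrophage and leukocyte markers in Ucp1-KO 14 (771 against 41.0 to 162). The 3 markers of proliferating cells, Top2a, Mki67 and Ccnb1, were highest in Ucp1-KO 13, with a sum of 21.6 against 4.37 to 8.57 RPKM in the others.

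Of the 56 members, 39 reached 0.5 RPKM on average and 17 did not, among these 3 (Akap4, Pde6c and Pde6h) listed at 0 in every culture. Each family was led by 1 member: Adcy6 among the cyclases, Pde3b among the phosphodiesterases, Prkaca and Prkar2b among the PKA subunits and Akap1 among the anchors. These leading members were the same in all 6 cultures. With all rows of a gene summed in place of its highest one, Adcy3, with 3 rows of similar read counts, led the cyclases in all 6 cultures. Between the genotypes, 0 of 39 members had an adjusted p below 0.05 in limma, as did 0.0% of the 16865 transcripts tested. At an unadjusted p below 0.05, 3 of 39 (7.69%) were counted, beside 5.54% of all transcripts, and the genotypes did not overlap for 4 of 39 (10.3%), beside 11.2% of all transcripts. Both shares of the members were near those of all transcripts.

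**Figure D1:**
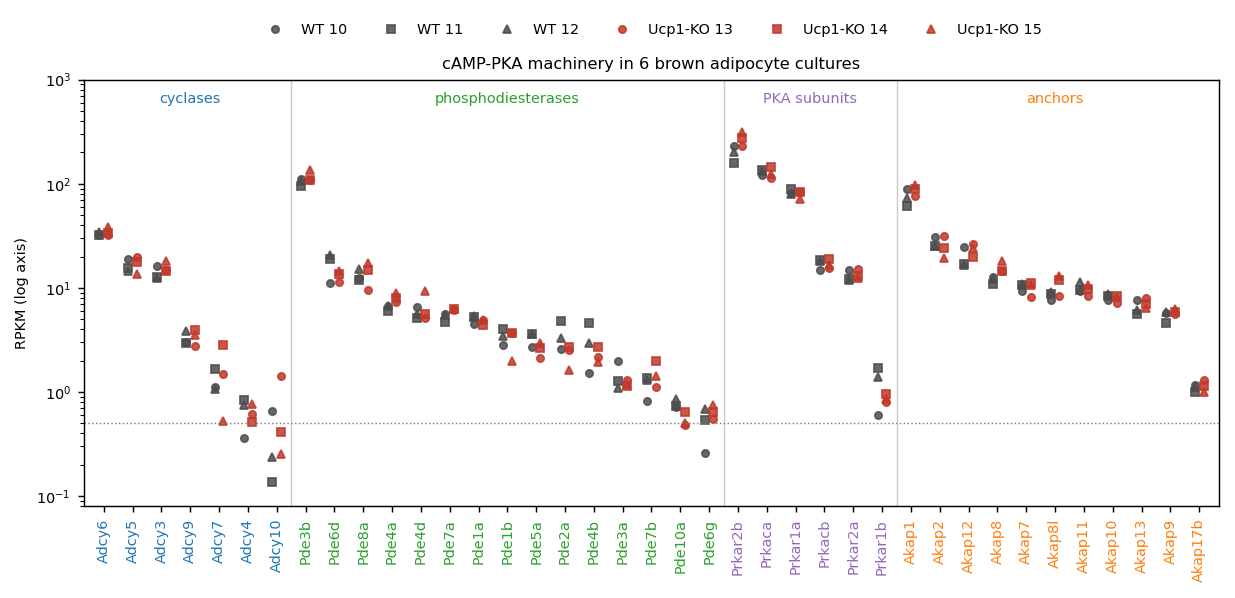
RPKM (log axis) of the 39 members that reached 0.5 RPKM on average, sorted within each family by their mean, with 1 point for each WT (grey) and Ucp1-KO (red) culture and a dotted line at 0.5 RPKM. Prkar2b, Prkaca and Pde3b lie near or above 100 RPKM in every culture, whereas most other members lie between 1 and 20 RPKM.

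Cyclases were expressed in the order Adcy6, Adcy5 and Adcy3. Adcy6, a transmembrane cyclase that calcium inhibits, measured 32.0, 32.1 and 34.4 RPKM in the WT cultures and 31.9, 33.5 and 38.4 RPKM in the Ucp1-KO cultures. The genotypes overlapped, with a log2 fold change of 0.07 (95% interval -0.16 to 0.30) in limma. Adcy5, the close relative of Adcy6 and likewise inhibited by calcium, measured 19.0, 15.6 and 14.5 against 20, 17.8 and 13.5 RPKM. Its lowest culture was Ucp1-KO 15, in which Adcy6 was highest, and the ratio of Adcy6 to Adcy5 ran from 1.60 in Ucp1-KO 13 to 2.85 in Ucp1-KO 15. Adcy3, the cyclase known from olfactory signalling, measured 16.3, 12.7 and 12.4 against 14.9, 14.6 and 18.2 RPKM. Adcy5 exceeded Adcy3 in 5 of the 6 cultures and was lower in Ucp1-KO 15, and the difference between them was not tested.

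These 3 genes made up the bulk of the family. Adcy6 held 47.5% ± 3.51 of the summed cyclase RPKM in WT and 46.4% ± 3.89 in Ucp1-KO cells (SD, n = 3). Adcy9, a widely expressed cyclase, followed at 2.79 to 3.94 RPKM. Adcy10, the soluble cyclase that bicarbonate stimulates, is named as the only one of its kind after its values were seen and was near the minimum, with 0.663, 0.138 and 0.238 against 1.43, 0.412 and 0.256 RPKM. The value in Ucp1-KO 13 rested on 120 reads and that in WT 11 on 12 reads, and the genotypes overlapped. The summed cyclase RPKM was 73.1, 66.9 and 67.8 in WT and 73.7, 74.0 and 75.7 in Ucp1-KO cultures. The highest WT culture lay just below the lowest Ucp1-KO culture.

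Adcy1, Adcy2 and Adcy8, cyclases best known from the brain, stayed below the minimum. Adcy1 is named here after its values were seen: it measured 0.229, 0.401 and 0.341 RPKM (48, 82 and 74 reads) in WT and 0.182, 0.156 and 0.0653 RPKM (36, 33 and 12 reads) in Ucp1-KO cultures. All Ucp1-KO cultures thus lay below all WT cultures, at a depth of few reads and without entering the main comparison.

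Adcy7, a cyclase known from leukocytes, was also picked out after its values were seen. It measured 1.12, 1.66 and 1.06 RPKM in WT and 1.49, 2.83 and 0.528 RPKM in Ucp1-KO cultures. Ucp1-KO 14 was the highest and Ucp1-KO 15 the lowest of all cultures, and the same holds for the summed macrophage and leukocyte markers, which were 53.4, 162 and 101 against 157, 771 and 41.0 RPKM over 5 genes, none of them at 0. The part of such cells in the Adcy7 values was not tested. In bulk RNA, fewer cells of a type and less RNA per cell cannot be told apart.

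PKA was represented by Prkaca and Prkar2b above all. Prkaca, the catalytic subunit Cα, measured 120.4, 136 and 134 RPKM in WT and 114, 146 and 123 RPKM in Ucp1-KO cultures. Prkacb, the catalytic subunit Cβ, measured 14.9, 18.5 and 18 against 15.5, 18.8 and 16.5 RPKM. Both were highest in Ucp1-KO 14, and the genotypes overlapped. The ratio of Prkaca to Prkacb stayed between 7.36 and 8.10 in the 6 cultures, and Prkaca held 88.4% ± 0.508 of the catalytic subunit RPKM in WT and 88.3% ± 0.295 in Ucp1-KO cells (SD, n = 3). The log2 fold change was -0.03 for Prkaca (95% interval -0.31 to 0.25) and -0.01 for Prkacb (95% interval -0.30 to 0.27).

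Prkar2b, the regulatory subunit RIIβ, known as the main PKA regulatory subunit of fat and brain (chr12:31958450-32061648), was the most abundant member. It measured 231, 159.8 and 202 RPKM in WT and 229, 272 and 312 RPKM in Ucp1-KO cultures. Ucp1-KO 14 and 15 lay above all WT cultures, while Ucp1-KO 13 lay just below WT 10, so that the genotypes overlapped. The means were 1.37-fold apart, with a log2 fold change of 0.46 (SE 0.17, 95% interval 0.05 to 0.87, unadjusted p = 0.0336, adjusted p = 0.868, limma). The lowest value, in WT 11, coincided with the highest sum of preadipocyte and fibroblast markers, and the highest, in Ucp1-KO 15, with the lowest sum of these markers (618 RPKM) and the highest sum of brown adipocyte markers (35136 against 31276 to 32755 RPKM in the others). Fabp4, a lipid carrier of fat cells in general, made up 83.4% to 85.2% of that sum. Without it the sum was still highest in Ucp1-KO 15 (5824 against 4657 to 5433 RPKM). This lead rested on Cidea, which measured 1371 RPKM there against 615 to 917 RPKM in the others. Only 5 of the 13 markers were highest in Ucp1-KO 15, and Adipoq, Lpl and Plin1 were highest in Ucp1-KO 13. All 8 fibroblast markers tested had lower means on the log scale in Ucp1-KO cells, 2 of them (Dcn and Lum) with an unadjusted p below 0.05, and 12 of 13 brown adipocyte markers had higher ones, 0 of them with an unadjusted p below 0.05. Mural and smooth muscle markers, with sums of 374, 252 and 202 RPKM in WT and 294, 91.3 and 62.2 RPKM in Ucp1-KO cultures, were lowest in Ucp1-KO 14 and 15, where Prkar2b was highest. All 6 mural markers tested had lower means on the log scale in Ucp1-KO cells (median log2 fold change -0.84, against -0.48 for the fibroblast markers), 2 of them (Cspg4 and Myh11) with an unadjusted p below 0.05 and 0 with an adjusted one (limma). The part of the cell composition in the Prkar2b difference was not tested.

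Prkar1a, the widely expressed regulatory subunit RIα, measured 81.0, 88.6 and 80.1 RPKM in WT and 82.4, 84.0 and 71.1 RPKM in Ucp1-KO cultures. It was lowest where Prkar2b was highest and highest where Prkar2b was lowest. The ratio of Prkar2b to Prkar1a was 2.86, 1.80 and 2.52 in WT and 2.78, 3.24 and 4.38 in Ucp1-KO cultures, again with overlap. Prkar2a, the subunit RIIα, followed at 14.8, 12.1 and 11.9 against 15.2, 13.1 and 12.5 RPKM. Prkar1b, the subunit RIβ known from neurons and likewise given after its values were seen, was the least abundant, with 0.601, 1.69 and 1.39 against 0.8, 0.949 and 0.862 RPKM.

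Prkar2b held 66.6% ± 5.06 of the regulatory subunit RPKM in WT and 74.1% ± 4.37 in Ucp1-KO cells (SD, n = 3), with a range over single cultures from 60.9% in WT 11 to 78.7% in Ucp1-KO 15. Summed regulatory subunits exceeded summed catalytic subunits in every culture, by ratios of 2.42, 1.69 and 1.94 in WT and 2.53, 2.24 and 2.84 in Ucp1-KO cultures.

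**Figure D2:**
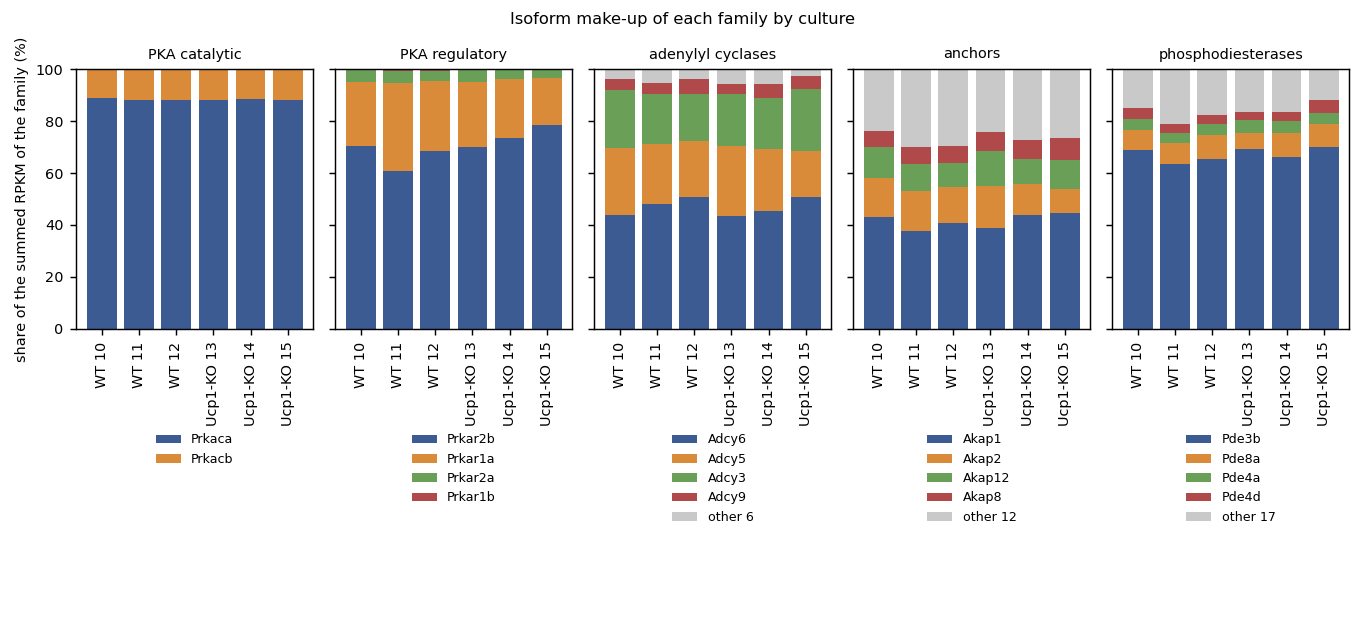
Share (%) of the summed RPKM of each family that its 4 leading members and the remaining members (grey) held, with 1 stacked bar for each culture. Prkaca held 88.0% to 89.0% of the catalytic subunit in every culture, whereas the share of Prkar2b among regulatory subunits varied from 60.9% to 78.7%.

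Several members had more than 1 RefSeq row, and rows of a gene share most of their reads. Reads per row were recovered as whole numbers from the RPKM values. Of 11 such members that reached 0.5 RPKM, and leaving aside 1 row of Pde4b that was at 0 in every culture, the rows of 9 differed by at most 10% of their reads in every culture, and the row with the highest RPKM was the shortest one in 10, Prkacb being the exception. The choice between such rows therefore says little about which transcript was made, and differences of reads between rows are given instead.

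The 4 rows of Prkacb (chr3:146729579-146812946, minus strand) share 9 exons with 4019 bases and differ in their first exon alone. NM_011100, which starts at the far 5′ end of the gene with a first exon of 309 bases, had 1099, 1334 and 1379 reads in WT and 1084, 1403 and 1070 reads in Ucp1-KO cultures. These were 22 to 47 more than any of the other 3 rows had in the same culture. NM_001164200, which starts at an internal exon of 270 bases, exceeded NM_001164199 by only 0 to 5 reads. Reads particular to a first exon were thus seen for the distal start in every culture of both genotypes, and there were few or none to set the internal starts apart. The 250 bases before these starts are shown because they differ in composition as well (RefSeq, GRCm38.p6, minus strand, 5′ to 3′). Capitals mark GC boxes, GGGCGG on either strand.
Prkacb before the distal start of NM_011100, chr3:146812947-146813196: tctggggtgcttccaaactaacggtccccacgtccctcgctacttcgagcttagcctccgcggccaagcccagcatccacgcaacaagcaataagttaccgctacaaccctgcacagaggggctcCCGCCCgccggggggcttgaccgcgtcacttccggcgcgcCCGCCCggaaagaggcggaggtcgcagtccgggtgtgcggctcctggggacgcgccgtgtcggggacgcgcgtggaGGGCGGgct
Prkacb before the internal start of NM_001164200, chr3:146781417-146781666: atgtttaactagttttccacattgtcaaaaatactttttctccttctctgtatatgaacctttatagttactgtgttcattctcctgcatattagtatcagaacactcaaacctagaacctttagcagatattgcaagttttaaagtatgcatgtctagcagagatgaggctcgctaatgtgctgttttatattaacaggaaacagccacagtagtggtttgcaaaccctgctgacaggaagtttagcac
Prkacb before the internal start of NM_001164198, chr3:146770239-146770488: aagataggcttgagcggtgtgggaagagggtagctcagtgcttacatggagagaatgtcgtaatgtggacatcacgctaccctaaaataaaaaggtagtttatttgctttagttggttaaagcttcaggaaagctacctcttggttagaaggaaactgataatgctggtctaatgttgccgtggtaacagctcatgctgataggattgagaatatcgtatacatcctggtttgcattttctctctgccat
The distal window held 3 GC boxes at a GC content of 69.2%, and the internal windows held 0 at 36.8% and 42.0%. A GC box was found in 32.7% of the 32851 windows of 250 bases before all RefSeq starts and in 36 of the 87 windows of the members (41.4%), which came from 45 of the 56 genes. By gene it was in 27 of these 45, beside 35.4% of all genes. A gene was counted if any of its windows held a GC box, so that genes with more windows had more chances. The number of windows per gene was not matched between the members and all genes. The bases after the start were found in a GENCODE transcript of the gene for 67 of the 87 windows, among them all those printed here. The complete cAMP response element TGACGTCA, searched on both strands, was found in 1.55% of all windows and in 1 of the 87 (1.15%), before a start of Prkar1a.

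**Figure D3:**
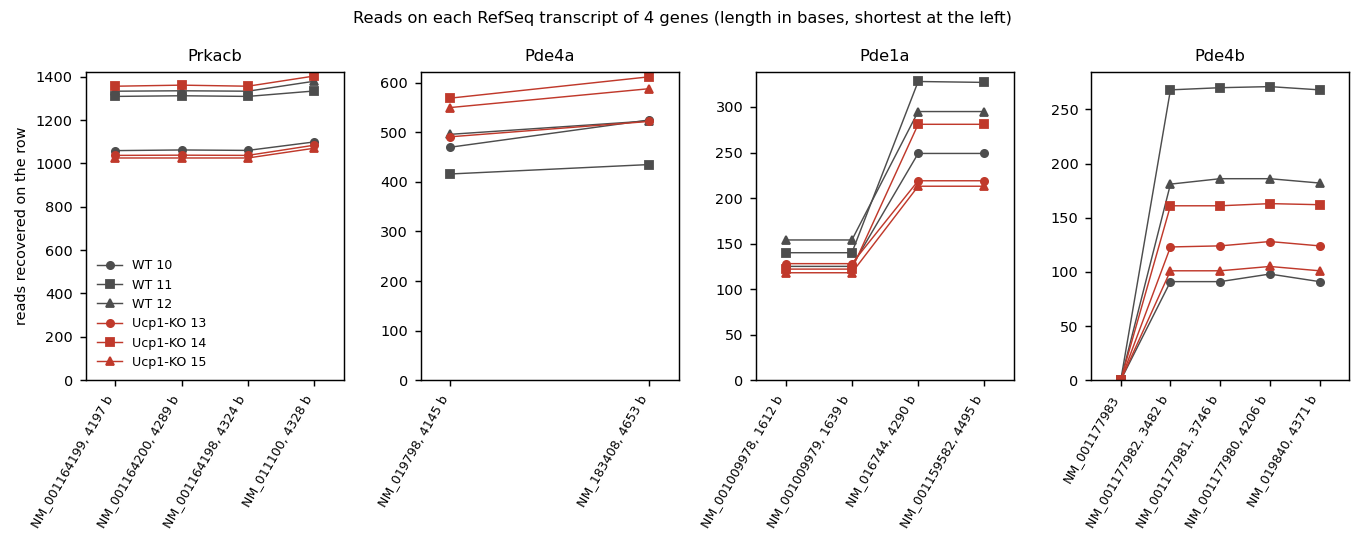
Reads on each RefSeq row of Prkacb, Pde4a, Pde1a and Pde4b, ordered by length from the left, with 1 line for each WT (grey) and Ucp1-KO (red) culture. The rows of Prkacb run nearly level apart from the rise at NM_011100, the long rows of Pde1a have more reads than the short ones, and the leftmost row of Pde4b (length not recovered) is at 0.

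Phosphodiesterases that hydrolyse both cAMP and cGMP were led by Pde3b, the isoform of fat cells that insulin activates and cGMP inhibits. Pde3b measured 110.0, 94.7 and 106 RPKM in WT and 108, 109 and 137 RPKM in Ucp1-KO cultures. Ucp1-KO 15 stood above the other 5 cultures, and the genotypes overlapped (log2 fold change 0.18, 95% interval -0.11 to 0.47). Pde3b held 66.0% ± 2.75 of the summed phosphodiesterase RPKM in WT and 68.5% ± 1.98 in Ucp1-KO cells (SD, n = 3). It exceeded its paralogue Pde3a, known from heart and platelets, 55.6 to 115-fold, and the sum of the 4 Pde4 genes 5.99 to 7.44-fold.

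The calcium and calmodulin dependent Pde1a measured 4.54, 5.20 and 5.39 RPKM in WT and 4.92, 4.39 and 4.88 RPKM in Ucp1-KO cultures, and its relative Pde1b 2.82, 4 and 3.46 against 3.65, 3.71 and 1.99 RPKM. Both overlapped between the genotypes. Pde1a rows that share 11 exons but have different first and last exons in GENCODE differed in reads. The row NM_016744 of 4290 bases had 249, 328 and 295 against 219, 281 and 213 reads, the row NM_001009978 of 1612 bases 125, 140 and 154 against 128, 122 and 118. In RPKM the shorter row was higher in every culture.

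Pde10a, a dual enzyme best known from the striatum, measured 0.714, 0.738 and 0.863 RPKM in WT and 0.481, 0.647 and 0.501 RPKM in Ucp1-KO cultures. All Ucp1-KO cultures lay below all WT cultures. On the log2(RPKM + 1) scale, which shrinks changes of such low values, the difference was -0.20 (95% interval -0.47 to 0.08, unadjusted p = 0.13, limma). It was -0.44 with 0.1 RPKM added (unadjusted p = 0.131, limma) and -0.51 when limma-voom was run on whole reads (unadjusted p = 0.0374). With limma-voom Pde10a was thus counted as well, making 4 of 39 members, beside 5.3% of all transcripts.

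Pde2a, the enzyme that cGMP stimulates, is named after its values were seen. It measured 2.56, 4.76 and 3.33 RPKM in WT and 2.54, 2.68 and 1.63 RPKM in Ucp1-KO cultures, with a log2 fold change of -0.46 (95% interval -0.97 to 0.05, unadjusted p = 0.0709, limma). WT 11 and WT 12 were highest and Ucp1-KO 15 lowest, and the preadipocyte and fibroblast markers, with sums of 719, 1680.5 and 1012 against 978, 909.8 and 618 RPKM, were highest and lowest in the same cultures. Col1a1 and Col3a1 made up most of these sums (568 and 718 RPKM in WT 11, 357 and 401 RPKM in WT 12). The place of WT 12 rested on these collagens. The part of preadipocytes and fibroblasts in the Pde2a difference was not tested.

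The cAMP-specific enzymes were led by Pde8a, which has a high affinity for cAMP, ahead of Pde4a and Pde4d. Pde8a measured 12.4, 11.9 and 15.1 RPKM in WT and 9.60, 15 and 17.4 RPKM in Ucp1-KO cultures. Both the lowest and the highest culture were Ucp1-KO. Pde4d measured 6.57, 5.15 and 5.67 against 5.11, 5.59 and 9.33 RPKM, with Ucp1-KO 15 above the rest.

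Pde4a (chr9:21165700-21213248) measured 6.64, 6.01 and 6.75 RPKM in WT and 7.33, 7.96 and 8.85 RPKM in Ucp1-KO cultures. The lowest Ucp1-KO culture lay above the highest WT culture, with means 1.24-fold apart and a log2 fold change of 0.28 (SE 0.10, 95% interval 0.03 to 0.52, unadjusted p = 0.034, adjusted p = 0.868, limma). Pde7a, an enzyme with a high affinity for cAMP, measured 5.56, 4.75 and 5.50 against 6.19, 6.22 and 6.30 RPKM. It did not overlap either, but missed the unadjusted threshold, with a log2 fold change of 0.21 (95% interval -0.02 to 0.44, unadjusted p = 0.0691, limma).

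The long Pde4a row NM_183408 has 6 exons of its own with 982 bases, and the short row NM_019798 has 1 with 474 bases. The long row had 525, 435 and 523 reads in WT and 522, 612 and 588 reads in Ucp1-KO cultures, which were 19 to 55 more than on the short row. The 250 bases before both starts (RefSeq, GRCm38.p6, plus strand) are given with GC boxes in capitals, since the rows differ in their 5′ exons.
Pde4a before the start of the long row NM_183408, chr9:21165464-21165713: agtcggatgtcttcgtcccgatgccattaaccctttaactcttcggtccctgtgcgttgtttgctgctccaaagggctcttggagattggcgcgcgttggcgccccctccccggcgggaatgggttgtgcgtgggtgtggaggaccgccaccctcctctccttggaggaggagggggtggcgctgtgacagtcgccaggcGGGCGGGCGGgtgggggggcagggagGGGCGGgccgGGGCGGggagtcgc
Pde4a before the start of the short row NM_019798, chr9:21196455-21196704: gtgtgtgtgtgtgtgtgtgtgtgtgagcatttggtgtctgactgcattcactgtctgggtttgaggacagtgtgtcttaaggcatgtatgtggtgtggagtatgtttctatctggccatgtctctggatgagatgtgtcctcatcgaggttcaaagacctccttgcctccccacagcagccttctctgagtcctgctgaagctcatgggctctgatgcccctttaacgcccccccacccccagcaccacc
The window of the long row held 4 GC boxes, some of them overlapping, at a GC content of 68.8%, and that of the short row 0 at 53.6%.

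Pde4b, named after its values were seen, measured 1.53, 4.61 and 2.93 RPKM in WT and 2.19, 2.68 and 1.94 RPKM in Ucp1-KO cultures. WT cultures were both the highest and the lowest. The cultures fell in the same order as by the summed endothelial markers, which were 2.45, 29.6 and 13.9 against 6.09, 13.4 and 5.51 RPKM over 5 genes. The part of such cells in the Pde4b values was not tested. Its row NM_001177983 was at 0 in all 6 cultures, while the other 4 rows had 91 to 271 reads each. Pde7b, another cAMP-specific enzyme, measured 0.823 to 1.98 RPKM.

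**Figure D4:**
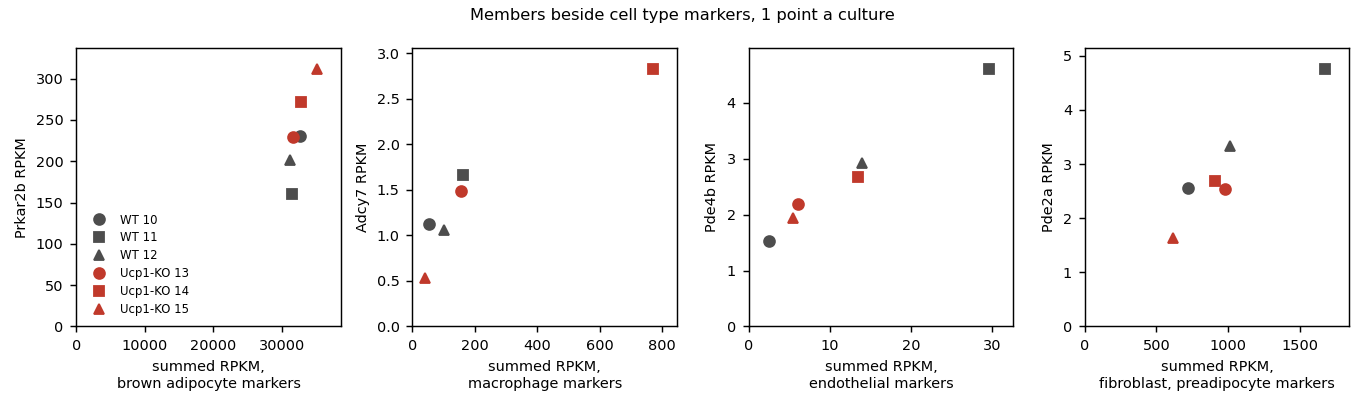
RPKM of Prkar2b, Adcy7, Pde4b and Pde2a against the summed RPKM of markers of brown adipocytes, macrophages, endothelial cells and preadipocytes or fibroblasts, with 1 point for each WT (grey) and Ucp1-KO (red) culture. Ucp1-KO 14 is highest for both Adcy7 and macrophage markers, and WT 11 for Pde4b with endothelial and Pde2a with fibroblast markers.

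Among enzymes specific for cGMP, Pde5a, the target of sildenafil, was the only one above the minimum. It measured 2.73, 3.62 and 3.59 RPKM in WT and 2.13, 2.66 and 2.94 RPKM in Ucp1-KO cultures, with a log2 fold change of -0.27 (95% interval -0.61 to 0.07). Pde9a measured 0, 0.233 and 0.0274 against 0.120, 0.253 and 0 RPKM, and Pde6a, of the photoreceptor enzyme, 0 to 0.102 RPKM. These values are near the limit of a few reads. Pde6d, named as a phosphodiesterase subunit but known as a carrier of lipid-modified proteins, was also added after its values were seen and measured 11.2, 19.0 and 20.6 against 11.4, 13.5 and 14.5 RPKM.

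Anchors were led by Akap1, which tethers PKA to the outer mitochondrial membrane. Akap1 measured 88.4, 61.3 and 73.5 RPKM in WT and 76.5, 89.4 and 96.2 RPKM in Ucp1-KO cultures. The genotypes overlapped (log2 fold change 0.24, 95% interval -0.13 to 0.61), with WT 11 lowest and Ucp1-KO 15 highest, as for Prkar2b. Akap1 exceeded the next anchor 2.43 to 4.02-fold and held 40.4% ± 2.72 of the anchor RPKM in WT and 42.6% ± 3.11 in Ucp1-KO cells (SD, n = 3).

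Akap2 measured 31.1, 25.1 and 25.3 RPKM in WT and 31.4, 24.2 and 19.5 RPKM in Ucp1-KO cultures. Akap12, a scaffold at the plasma membrane that also binds β-adrenergic receptors, measured 24.8, 16.9 and 16.4 against 26.5, 20 and 24 RPKM. Both overlapped between the genotypes, and both were highest in Ucp1-KO 13.

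Akap8, an anchor of the nucleus (chr17:32303672-32321238), measured 12.8, 10.9 and 12.1 RPKM in WT and 14.4, 14.6 and 18.2 RPKM in Ucp1-KO cultures. All Ucp1-KO cultures lay above all WT cultures, with means 1.32-fold apart. The log2 fold change of 0.37 had the smallest p of the members (SE 0.12, 95% interval 0.08 to 0.65, unadjusted p = 0.0189, adjusted p = 0.868, limma). Its neighbour and relative Akap8l, whose gene lies 185 bases away and which was added after its values were seen, measured 7.66, 8.76 and 9.15 against 8.43, 12 and 13 RPKM and overlapped between the genotypes (log2 fold change 0.33, 95% interval -0.06 to 0.72).

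The remaining anchors lay close together. Akap7, Akap11 and Akap10 measured between 7.13 and 11.3 RPKM in all cultures, and Akap13 and Akap9, a large scaffold of the centrosome and Golgi apparatus, between 4.56 and 7.94 RPKM. Akap17b was at 1.01 to 1.30 RPKM. The mainly neuronal or muscular Akap5 and Akap6 and the sperm anchors Akap3 and Akap4 were below the minimum.

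Across the families, the 3 members below an unadjusted p of 0.05 were Akap8, Prkar2b and Pde4a, all higher in Ucp1-KO cells, beside 388 higher and 547 lower ones among all transcripts. The 4 members without overlap were Akap8, Pde4a and Pde7a, higher, and Pde10a, lower in Ucp1-KO cells. With 3 cultures against 3, an exact permutation test cannot give a p below 0.1, which is the value for these 4 members.

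By family, the log2 fold change was above 0 for 6 of 7 cyclases (median 0.07), 5 of 6 cAMP-specific phosphodiesterases (median 0.17), 1 of 6 dual ones (median -0.13), 0 of 2 catalytic and 2 of 4 regulatory subunits and 7 of 11 anchors (median 0.12). Over all members it was above 0 for 22 of 39 (56.4%, median 0.06), and over all transcripts for 49.6% (median -0.002). The unadjusted calls depended on single cultures. Without WT 11 the log2 fold changes of Akap8, Prkar2b and Pde4a were 0.31, 0.31 and 0.23 with unadjusted p of 0.0668, 0.106 and 0.11 in limma, and 0 of 39 members were below 0.05, beside 1.88% of all transcripts. Prkar2b and Pde4a also missed 0.05 without WT 12 (unadjusted p = 0.0662 and 0.062, limma), without Ucp1-KO 14 (0.0781 and 0.0816) and without Ucp1-KO 15 (0.0971 and 0.0967), and Pde4a without WT 10 (0.0543). Akap8 missed it without WT 11 alone. All 3 genes were lowest in WT 11 and highest in Ucp1-KO 15, the cultures with the highest and lowest sums of preadipocyte and fibroblast markers (1680.5 and 618 RPKM). Mural marker sums were likewise lowest in Ucp1-KO 15 (62.2 RPKM) but highest in WT 10 (374 RPKM). Acta2 and Tagln made up most of the sum in WT 10 (181 and 153 RPKM). These genes and Myh11 were highest in WT 10, whereas Pdgfrb, Cspg4 and Rgs5 were highest in WT 11. The part of fibroblasts or mural cells in these differences was not tested.

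**Figure D5:**
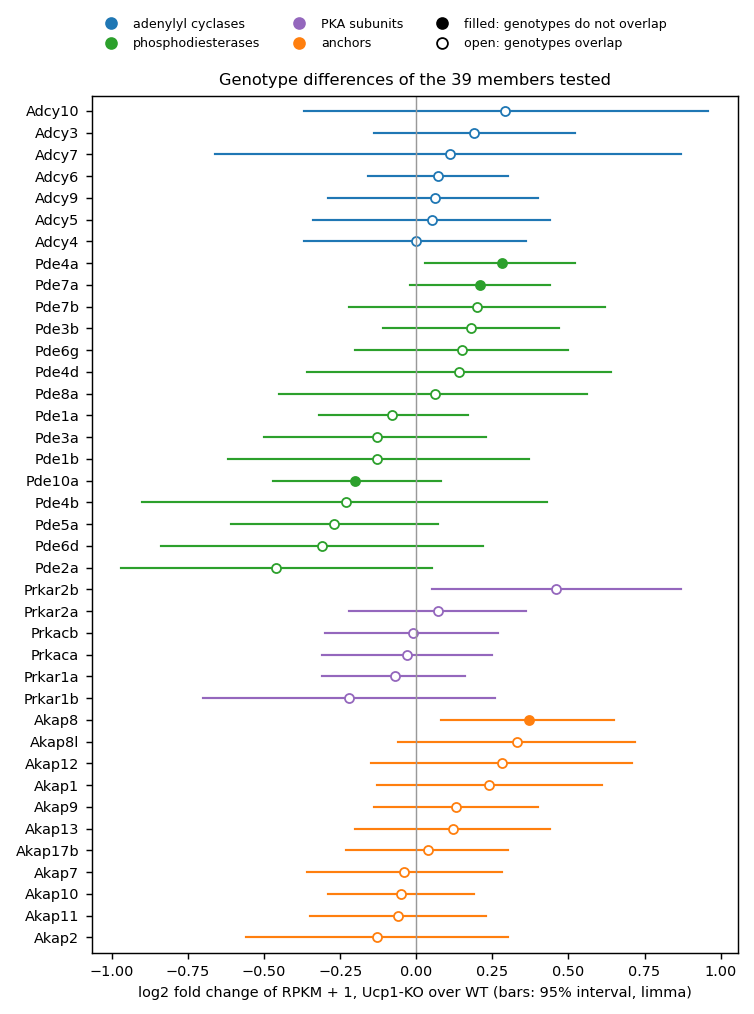
Log2 fold change of RPKM + 1, Ucp1-KO over WT, for the 39 members tested, with 95% intervals from limma (3 cultures a genotype) and filled points where the genotypes do not overlap. Intervals of Prkar2b, Akap8 and Pde4a lie above 0, and all other intervals include 0.

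Genes around this machinery were compared in the same way. The β3-adrenergic receptor Adrb3, the main one of brown fat in mice, had a log2 fold change of -0.06, and the stimulatory G protein gene Gnas was at 744 to 1019 RPKM. Of 10 PKA inhibitors and other cAMP effectors, 6 were tested and 1 had an unadjusted p below 0.05 in limma, beside 5.54% of all transcripts. This was the PKA inhibitor Pkia, with 5.07, 5.12 and 5.31 against 4.52, 4.22 and 2.99 RPKM (log2 fold change -0.34, unadjusted p = 0.0468, limma).

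Of 6 transcription factors and coactivators of the pathway, 6 were tested and 0 had an unadjusted p below 0.05 in limma, beside 5.54% of all transcripts. Beside the same share of all transcripts, the count was 1 of 8 tested genes for the cAMP-induced genes, namely Ucp1 itself. It was 0 of 2 for the lipolytic PKA substrates Lipe and Plin1, and 0 of 7 for anchors without an Akap symbol. In none of these lists did a gene pass the adjusted threshold.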

How the data were processed

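RNA of 6 cultures of primary brown adipocytes (3 WT, 3 Ucp1-KO) was sequenced with a kit that does not mark the strand, as single reads of 50 bases, so that reads of antisense transcripts cannot be told apart. The authors used build 38 of the mouse genome for mapping, counted uniquely placed reads on known transcripts with Genomatix tools, and the deposited RPKM values are relative to transcript length and mapped reads. Groups came from the sample labels. The members and lists were chosen with earlier results of these data known.

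The genotypes were tested in limma 3.58.1 (R 4.3.3), two-sided and without covariates, using its trended empirical Bayes fit to log2(RPKM + 1). All 16865 RefSeq transcripts (12259 genes) that reached 0.5 RPKM on average entered, and p-values were adjusted over all of them after Benjamini and Hochberg. The added 1 RPKM understates changes of low transcripts. Members described in full are the 3 most abundant of each class and any with an unadjusted p below 0.05 or, above the minimum, genotypes that do not overlap. Others are said to be chosen after their values were seen. Exact permutation tests were two-sided. Shares and ratios were computed from RPKM and not tested. Results for some single genes are left out of the text.

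Whole reads were recovered from RPKM with library totals computed from low values. Of the transcripts tested, 16864 (99.99%) gave whole reads in all cultures, with an allowance of at most 0.2 reads. On simulated data, 6 of 6 totals and 299 of 300 lengths were recovered. With 200 of 16865 transcripts changed 3-fold in simulated data, limma called 182, of which 178 were changed ones, and with 2-fold changes it called 144, of which 134 were changed ones. In the measured data the change of Ucp1 did not pass the adjusted threshold. Depth covers counting error only, since PCR copies of a molecule cannot be recognised. Coordinates, promoter windows and exons are from RefSeq (GRCm38.p6) and GENCODE M21, and 55 of 56 members were matched to coordinates. Other calculations and figures were made in Python 3.11.15 (pandas 2.3.3, numpy 2.4.6, matplotlib 3.10.9, scipy 1.17.1). Alternatives were 0.1 RPKM added, no minimum or 1 RPKM, 1 transcript per gene, median-of-ratios scaling, limma-voom on the reads, other ways to combine rows, and leaving out each culture.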

Additional observations from a re-analysis of the deposited data

How the results depend on the processing

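The count of transcripts with an adjusted p below 0.05 was 0 in limma under all alternatives and with each culture left out. Members below an unadjusted p of 0.05 were 3 of 39 (beside 5.54% of all transcripts). With no minimum they were 5 of 53 (beside 5.73%), where Adcy1 and Pde10a came in. With limma-voom they were 4 of 39 (beside 5.3%), with Pde10a added. They ranged from 0 (without WT 11, beside 1.88% of all transcripts) to 9 (without WT 10, beside 10.4%). Without Ucp1-KO 13 they were 4 (9.14%), where Akap8l came in with a log2 fold change of 0.51 (unadjusted p = 0.00436, limma). They were 1 without WT 12 (2.61%), without Ucp1-KO 14 (3.57%) or without Ucp1-KO 15 (5.16%), Akap8 each time. The counts over all transcripts thus moved as well. Members whose genotypes do not overlap ranged from 4 to 18 with a culture left out, being 18 without WT 10 (beside 32.8% of all transcripts), 10 without Ucp1-KO 13 (27.8%), the culture highest in proliferation markers, and 4 or 5 without any of the others (14.4% to 20.5%), and the cause was not tested. Directions of small differences turned with single cultures. The ranges of the log2 fold change over the cultures left out were -0.07 to 0.20 for Adcy5, -0.01 to 0.12 for Adcy6, -0.30 to 0.03 for Akap2, -0.24 to 0.09 for Pde1b, -0.09 to 0.28 for Pde4d, -0.11 to 0.29 for Pde8a, -0.13 to 0.04 for Prkaca, -0.10 to 0.05 for Prkacb, -0.12 to 0.001 for Prkar1a and -0.01 to 0.16 for Prkar2a. Prkacb also turned under median-of-ratios scaling, to 0.002. Summing all rows of a gene, which counts shared reads repeatedly, changed the shares in WT and Ucp1-KO cells to 33.3% and 31.7% for Adcy6, which then came after Adcy3 in all 6 cultures, 51.1% and 55.5% for Pde3b, 65.9% and 65.7% for Prkaca and 47.5% and 51.0% for Akap1, whereas the mean of the rows kept them within 1 SD. With a culture left out, the shares in WT and Ucp1-KO cells ranged from 45.9% to 49.4% and 44.3% to 48.0% for Adcy6, 64.5% to 67.2% and 67.8% to 69.7% for Pde3b, 88.1% to 88.6% and 88.1% to 88.4% for Prkaca, 64.7% to 69.5% and 71.7% to 76.1% for Prkar2b, and 39.1% to 41.8% and 41.4% to 44.3% for Akap1. No paired analysis was possible because WT and Ucp1-KO cultures have no replicate number in common. Depth limits the members below about 0.1 RPKM, the value of 3 reads on 2000 bases.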

Other observations

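Single cultures were at the extremes unequally. Ucp1-KO 15 held the highest value of 13 of 39 members (33.3%, beside 23.6% of all transcripts tested), among them Prkar2b, Pde3b, Adcy6, Adcy3, Akap1, Akap8, Pde4a, Pde4d and Pde8a. WT 10 held the highest value of 1 member (2.56%, beside 6.34% of all). The lowest value was most often in Ucp1-KO 13, for 10 members (25.6%, beside 24.5% of all).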
